A study of Mus musculus with 8 samples.

Results

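Glucocorticoid-responsive genes were followed in RNA from mouse knee joints. The set was the glucocorticoid receptor gene Nr3c1 and 9 genes known as direct targets of the receptor, Fkbp5, Tsc22d3, Zbtb16, Sgk1, Dusp1, Klf9, Klf15, Mt1 and Mt2, chosen by exact match of the gene name, which gave 10 of the 20681 rows of the deposited table. There were 4 libraries labelled control and 4 labelled knockout, each from a knee joint of mice described as Acan-Cre;Loxl2 fl/fl. Cre is placed under the control of aggrecan (Acan) in such animals and cuts Loxl2 alleles flanked by loxP sites, so deletion is limited to cells that have expressed the driver, chondrocytes above all, and other joint cells keep the gene. The control group was vehicle-treated and its library names carry LOXL2wt, and those of the other group LOXL2ko. All 8 names also carry DMM, which the labels do not explain. The agent that the vehicle stands for, the age and sex of the mice, the time of sampling and the hour of collection are not given in the labels used here. No glucocorticoid treatment is named for either group and no hormone level was available, so the values below describe transcripts only.

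Glucocorticoids are steroid hormones of the adrenal cortex that bind a receptor held in the cytoplasm by heat shock protein chaperones. The bound receptor moves to the nucleus, binds glucocorticoid response elements in DNA, and raises the transcription of targets that damp inflammation, adjust fuel use and promote protein breakdown in muscle. Many of these targets answer to other signals too, the metallothioneins Mt1 and Mt2 to zinc and other metals through the factor MTF1, and Klf9 and Klf15 to the time of day.

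The libraries held between 13991000 and 17411617 reads assigned to genes. Values are normalised read counts, which are reads divided by a size factor for the library, and a difference is the mean log2 value (after adding 1) of the libraries labelled knockout minus that of the control libraries. As a check of the labels, the targeted gene Loxl2 had 282, 349, 1135 and 311 normalised reads in the control libraries (replicates 1 to 4, the order used throughout) and 893, 1468, 960 and 1518 in those labelled knockout. It was higher on average where the label says knockout (log2 difference 1.44, SE 0.40, limma adjusted p = 0.0294, two-sided exact permutation p = 0.0857). The label is thus not borne out by this gene. Cells without the driver keep the gene, so a count over the whole joint could hide a fall. The higher value is left unexplained, and whether the labels were exchanged was not tested. The groups are called by their labels here. The call of Loxl2 was lost by edgeR (adjusted p = 0.0669) and DESeq2 (0.0659), with the replicate block (limma adjusted p = 0.0513) and on leaving out control replicate 1, 2 or 4 or knockout replicate 2 or 4 (limma adjusted p up to 0.0849). Markers of the cell types of a joint also differed between the groups. The 14 skeletal muscle markers summed to between 2327531 and 2513177 normalised reads in the control libraries and between 1138121 and 1602885 in those labelled knockout, with 14 of 14 lower, 6 called lower and a median log2 difference of -0.74. All 8 macrophage markers were called higher (median 1.36, summed level 1407 to 3229 against 5006 to 6777), and so were 7 of 10 fibroblast markers (median 1.49, 28845 to 93998 against 129267 to 204127). Over all genes tested, 11.6% were called higher and 11.6% lower. No marker of these 3 lists was at 0 in every library. In RNA from whole joints, fewer cells of a type and less RNA per cell cannot be told apart, and the part of these shifts in the results below was not tested.

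The sequences just before the transcription starts of the genes on which the results turn are shown first, since they can hold sites through which hormone and metals act. RefSeq promoter windows (build GRCm38.p6, 250 bases before to 50 after the start) were matched for 8 of the 10 genes, in 15 windows because Sgk1 and Tsc22d3 have several starts. Motifs were searched on both strands. The glucocorticoid response element was written as AGAACA and TGTTCT with any 3 bases between them, which reads the same on both strands, and its core as GNACA and TGTNC with the same gap, which lies inside it. The metal response element was written TGCACNC or TGCGCNC. Capitals in the lines below mark metal response elements in Mt1 and Mt2 and the full glucocorticoid response element in Sgk1. The windows are chr8:94178839-94179138, chr8:94172368-94172667 and chr10:21993640-21993939, all on the plus strand, the last of them belonging to the start of Sgk1 at base 21993890.
Mt1: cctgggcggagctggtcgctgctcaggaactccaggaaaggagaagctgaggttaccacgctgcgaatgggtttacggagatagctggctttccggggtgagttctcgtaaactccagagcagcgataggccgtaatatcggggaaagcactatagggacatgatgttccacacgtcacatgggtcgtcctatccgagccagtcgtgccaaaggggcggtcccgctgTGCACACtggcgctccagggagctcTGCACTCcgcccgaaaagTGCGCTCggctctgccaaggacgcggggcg
Mt2: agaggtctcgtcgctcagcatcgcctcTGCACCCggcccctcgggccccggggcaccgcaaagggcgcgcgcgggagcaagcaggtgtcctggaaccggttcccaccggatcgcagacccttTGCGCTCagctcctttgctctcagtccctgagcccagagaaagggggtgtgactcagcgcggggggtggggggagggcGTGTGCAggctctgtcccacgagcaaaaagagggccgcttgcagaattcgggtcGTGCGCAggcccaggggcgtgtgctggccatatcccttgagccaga
Sgk1: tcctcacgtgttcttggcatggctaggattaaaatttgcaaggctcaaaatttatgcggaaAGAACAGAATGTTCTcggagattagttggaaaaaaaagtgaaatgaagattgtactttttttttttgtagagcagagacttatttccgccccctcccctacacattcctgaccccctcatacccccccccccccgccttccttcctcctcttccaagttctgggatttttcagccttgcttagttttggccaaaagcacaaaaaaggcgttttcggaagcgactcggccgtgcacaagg

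The Mt1 window held 3 metal response elements and the Mt2 window 4. At least 3 of them were found in 1.97% and at least 4 in 0.517% of the 32851 windows of the table. The Mt1 window also held the core of the glucocorticoid response element once, 94 to 82 bases before the start, a sequence present in 0.475% of windows. The full element stood in 1 of the 6 Sgk1 windows, 189 to 175 bases before the start, and in only 3 of all windows (0.00913%). The windows of Fkbp5, Klf9, Klf15, Dusp1, Tsc22d3 and Mt2 held neither form of the glucocorticoid response element. The windows of Dusp1 and Klf15 and 1 other window of Sgk1 held 1 metal response element each. At least 1 of these was found in 25.7% of all windows. A match is a description of letters, and the absence of one says nothing of sites elsewhere.

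Of the 10 genes, 7 had a lower mean log2 value in the libraries labelled knockout and 3 had a higher one. Sgk1 and Klf9 fell, Mt1 rose, and the receptor gene Nr3c1 stood at 0.00. By limma at an adjusted p under 0.05 across all genes tested, 2 of the 9 genes abundant enough to test were called lower, against 11.6% of the 14949 genes tested. For 1 of the 9, Mt1, the call was higher, again against 11.6%, which makes 3 of 9 in either direction against 23.2%. Mt2 did not reach the minimum of 10 normalised reads in 4 libraries and was not tested in this fit. Without the adjustment, 6 of the 9 were lower with a p under 0.05, against 19.2% of all genes tested, and 7 differed in either direction, against 38.4%. The groups did not overlap for 2 of the 9, Sgk1 and Mt1, against 25.1% of all genes tested, nor for Mt2. edgeR (11.3% of genes called higher, 10.9% lower) and DESeq2 (14.3% and 13.3%) called the same 3 genes, Mt1, Sgk1 and Klf9. When libraries were scaled on genes other than the muscle and blood markers and the 50 highest genes, 18.1% of genes were called higher and 5.24% lower (2708 and 784, beside 1732 and 1729 as deposited), and of the set only Mt1 was called. That scaling moved the median of all genes to 0.15. With the replicate number as a block, 7.47% were called higher and 6.03% lower, and of the set again only Mt1. The median difference of the 9 genes was -0.37, beside 0.00 over all genes tested.

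**Figure D1:**
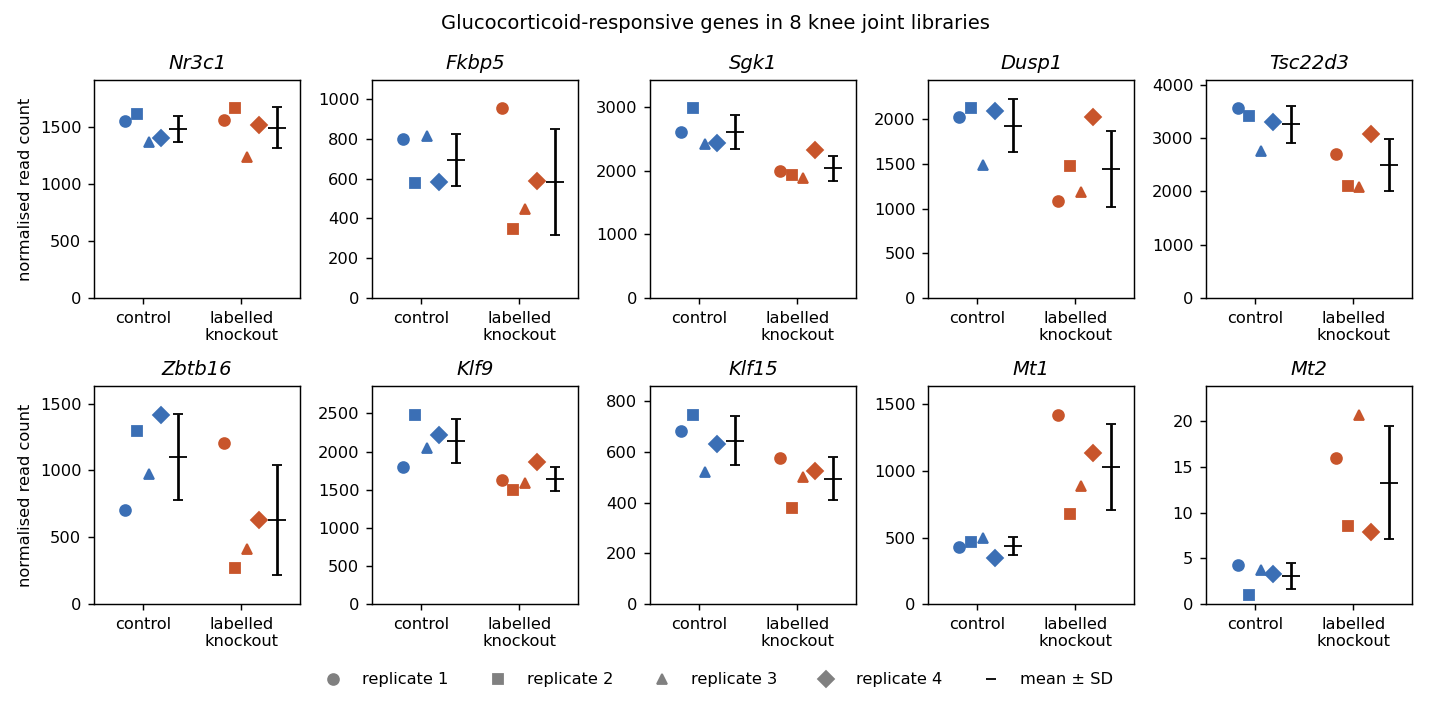
Normalised read count (vertical axes, linear, from 0) of the 10 genes in each library, with control in blue and the libraries labelled knockout in orange, 1 symbol per replicate number, and the mean ± SD (n = 4) in black. The orange points of Sgk1 all lie under the blue ones (at most 2322 against at least 2415), and those of Mt1 and Mt2 all lie over them.

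The receptor itself, encoded by Nr3c1 (chromosome 18, 39410545 to 39519421, minus strand, mm10), had 1555, 1615, 1373 and 1409 normalised reads in the control libraries. Those labelled knockout had 1568, 1667, 1238 and 1521. The groups overlapped fully, with means of 1488 ± 116 and 1498 ± 184 (SD, n = 4). The log2 difference was 0.00 with a 95% interval from -0.23 to 0.24 (limma adjusted p = 0.980, exact two-sided permutation p = 0.943). Under the scaling without muscle, blood and highest genes it was 0.15, also not called. Its standard deviation within the groups, 0.15 on the log2 scale, was below that of most genes tested (percentile 25.5).

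Fkbp5 encodes a co-chaperone that lowers the affinity of the receptor for its hormone, and its induction closes a feedback loop. It maps to chromosome 17 (28399094 to 28517527, minus strand). Its normalised read counts were 799, 576, 816 and 583 in the control libraries and 952, 344, 448 and 588 in those labelled knockout. Knockout replicate 1 held the highest value of all 8 libraries and knockout replicate 2 the lowest. The log2 difference, -0.34 (SE 0.28), was not called (limma adjusted p = 0.402, exact permutation p = 0.371). Without knockout replicate 1 it was -0.61, and still not called (limma adjusted p = 0.0704). The annotation places 4 further genes across its span, 2 of them on the opposite strand, and the use of strand is not stated. Of the 50-base words in its transcripts, 0.684% also lie in transcripts of other genes, read on either strand. The doubt thus covers a small part of its exons.

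Sgk1 encodes a kinase that acts on ion channels and transporters and is induced by glucocorticoids and mineralocorticoids. It maps to chromosome 10 (21882184 to 21999903, plus strand). The control libraries had 2604, 2978, 2415 and 2427 normalised reads and those labelled knockout 2002, 1935, 1884 and 2322. Every library labelled knockout was below every control library, a pattern in this direction that 13.4% of all genes tested showed. The mean fell from 2606 ± 262 to 2035 ± 197, or -0.36 on the log2 scale, SE 0.10 (limma adjusted p = 0.0290, exact permutation p = 0.0286, the smallest that 4 against 4 allows). Leaving out control replicate 1 or 2 (limma adjusted p = 0.0566 and 0.0810) or knockout replicate 1, 2 or 3 (0.0641, 0.0712 and 0.0531) ended the call. It was also lost under the scaling without muscle, blood and highest genes (-0.21, limma adjusted p = 0.148).

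Dusp1 encodes a phosphatase that switches off stress-activated kinases and carries part of the anti-inflammatory effect of glucocorticoids. It maps to chromosome 17 (26505590 to 26562128, minus strand), opposite Ergic1 in part. Its normalised read counts were 2025, 2123, 1485 and 2090 in the control libraries and 1087, 1482, 1181 and 2028 in those labelled knockout. Control replicate 3 lay with the lower libraries and knockout replicate 4 with the higher ones. The log2 difference, -0.45 (SE 0.19), was not called (limma adjusted p = 0.119, exact permutation p = 0.0857). It was called without knockout replicate 4, at -0.62 (limma adjusted p = 0.0382). Its promoter window held the cyclic AMP response element TGACGTCA, spelled the same on both strands, which 1.79% of windows held.

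Tsc22d3 encodes GILZ, a leucine zipper protein that restrains inflammatory transcription factors. The gene maps to chromosome X (140539528 to 140600659, minus strand). The control libraries had 3556, 3407, 2748 and 3309 normalised reads and those labelled knockout 2709, 2101, 2075 and 3082. As for Dusp1, control replicate 3 was the lowest control and knockout replicate 4 the highest of its group. The log2 difference, -0.40 (SE 0.14), missed the threshold (limma adjusted p = 0.0670, exact permutation p = 0.0571). It was called without control replicate 3, at -0.48 (limma adjusted p = 0.0432), and without knockout replicate 4, at -0.51 (limma adjusted p = 0.0400).

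Zbtb16 encodes the zinc finger repressor PLZF and is known as a strongly induced glucocorticoid target. It maps to chromosome 9 (48654297 to 48836222, minus strand). Its normalised read counts were 707, 1297, 977 and 1416 in the control libraries and 1207, 269, 411 and 632 in those labelled knockout. It had the widest spread of the tested genes of the set, with a standard deviation within groups of 0.73 on the log2 scale (percentile 91.7 of all genes tested). The log2 difference of -0.98 was the largest fall of the set in size, but with a standard error of 0.40 it was not called (limma adjusted p = 0.106, exact permutation p = 0.114). Knockout replicate 1 lay among the controls, and without it the difference was -1.36 and was called (limma adjusted p = 0.0249).

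Klf9 encodes a Krüppel-like factor induced by glucocorticoids and thyroid hormone. It maps to chromosome 19 (23141226 to 23168134, plus strand), and the annotation places Mir1192 within it on the same strand. The control libraries had 1798, 2483, 2043 and 2224 normalised reads and those labelled knockout 1627, 1498, 1589 and 1862. The groups overlapped only in that knockout replicate 4 was above control replicate 1. The mean fell from 2137 ± 289 to 1644 ± 155, or -0.37 on the log2 scale, SE 0.11 (limma adjusted p = 0.0385, exact permutation p = 0.0571). The call ended on leaving out control replicate 2, 3 or 4 (limma adjusted p = 0.103, 0.0527 and 0.0917) or knockout replicate 1, 2 or 3 (0.0769, 0.0948 and 0.0635), and under the scaling without muscle, blood and highest genes (-0.22, limma adjusted p = 0.144).

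Klf15, a Krüppel-like factor gene of amino acid and glucose metabolism in muscle, maps to chromosome 6 (90462576 to 90475238, plus strand). Its normalised read counts were 680, 746, 520 and 630 in the control libraries and 575, 378, 499 and 525 in those labelled knockout. Control replicate 3 lay within the range of the other group. The log2 difference, -0.38 (SE 0.15), was not called (limma adjusted p = 0.0904, exact permutation p = 0.0857), except without control replicate 3, at -0.48 (limma adjusted p = 0.0440).

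**Figure D2:**
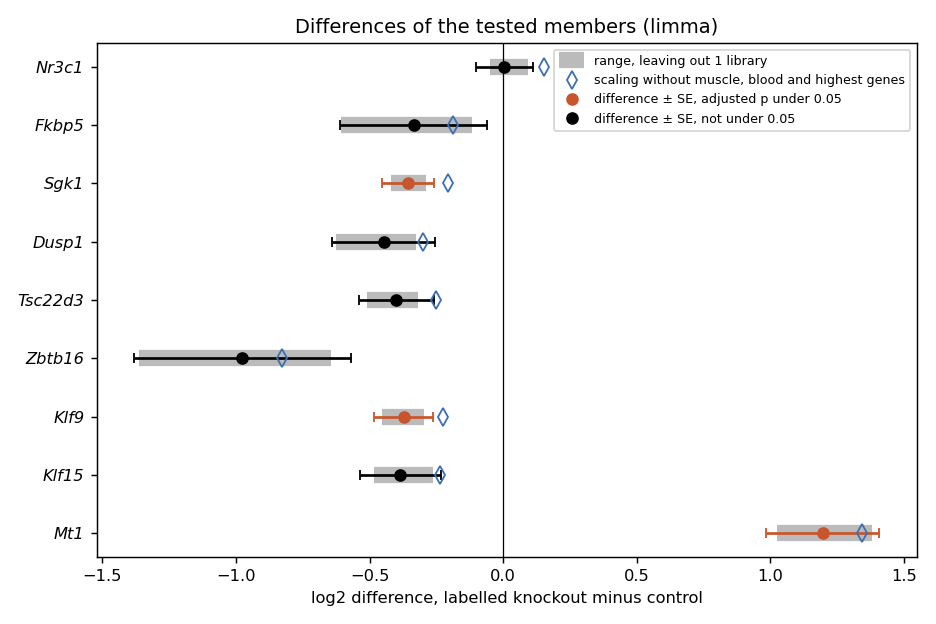
Log2 difference of the 9 tested genes, libraries labelled knockout minus control, with the standard error of the limma fit as bars, orange where the adjusted p was under 0.05. Grey bands span the fits that each left out 1 library and diamonds the scaling without muscle, blood and highest genes. Sgk1, Dusp1, Tsc22d3, Klf9, Klf15 and Fkbp5 lie between -0.45 and -0.34, Zbtb16 at -0.98, Nr3c1 at 0.00 and Mt1 at 1.20.

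The metallothioneins, small cysteine-rich proteins that bind zinc and copper, had higher values, not lower ones, in the libraries labelled knockout. Mt1 (chromosome 8, 94179082 to 94180327, plus strand) had 433, 470, 498 and 345 normalised reads in the control libraries. In the libraries labelled knockout it had 1420, 675, 888 and 1136. Every library labelled knockout was above every control library, as for 11.7% of all genes tested. The mean rose from 437 ± 66.7 to 1030 ± 321, a ratio of means of 2.36. The difference of mean log2 values was 1.20, SE 0.21 (limma adjusted p = 0.00687, exact permutation p = 0.0286). The call was kept in 16 of 16 alternative fits, with differences from 1.02 to 1.38.

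Mt2 (chromosome 8, 94172664 to 94173568, plus strand) is the neighbour of Mt1 and was barely counted. It had 4, 1, 4 and 3 reads in the control libraries and 16, 10, 19 and 9 in those labelled knockout, before scaling. The groups did not overlap, which in this direction held for 9.51% of all 20681 rows (exact permutation p = 0.0286). In the fit without the filter on low values it stood 1.79 higher on the log2 scale, SE 0.49 (limma adjusted p = 0.0337), and edgeR without the filter gave 2.05 (adjusted p = 0.0364). In that unfiltered limma fit 7.99% of genes were called higher and 7.33% lower. The reads of Mt2 were between 0.214% (exact 95% interval 0.00542 to 1.19%) in control replicate 2 and 2.27% (1.37 to 3.53%) in knockout replicate 3 of the sum of Mt1 and Mt2, intervals that cover counting error only. The annotation places the antisense gene Gm45774 (chromosome 8, 94170748 to 94173412) across it on the opposite strand. Of the 50-base words in the transcripts of Mt2, 45.8% also lie in transcripts of Gm45774, read on the other strand. For Mt1 that share with any other gene was 0%. Gm45774 itself was listed with at most 3.26 normalised reads. The use of strand and the handling of reads that fall on 2 genes are not stated, so the level of Mt2 is uncertain, and the part of the overlap in it was not tested.

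Compared per length, the order of the genes changed at the place of Mt1. In normalised reads per kilobase of annotated exon, the control means ran from Tsc22d3 (750 ± 81.3) over Dusp1 (583 ± 90.5), Sgk1 (532 ± 53.5), Klf9 (444 ± 60.1) and Mt1 (350 ± 53.5) to Klf15 (231 ± 34.2), Zbtb16 (208 ± 60.7), Nr3c1 (194 ± 15.1), Fkbp5 (73.3 ± 13.9) and Mt2 (5.26 ± 2.47). The ranges of neighbours in that order overlapped, except between Mt1 and Klf15, Nr3c1 and Fkbp5, and Fkbp5 and Mt2. In the libraries labelled knockout Mt1 had the highest mean (827 ± 258), ahead of Tsc22d3 (574 ± 113), although the ranges of these 2 genes overlapped. With these exon lengths, Mt1 ranked 5 in 4 of 4 control libraries and 1 in 4 of 4 libraries labelled knockout. The level of Mt1 was 0.363 to 0.632 times that of Tsc22d3 in the control libraries and 1.12 to 1.83 times in the others. Exon length was taken from all annotated transcripts, so the levels are approximate where short transcripts are used, as for Sgk1 and Tsc22d3 with their several starts. The annotated exons of Mt1 cover all 1246 bases from its start to its end, so any intron is counted in its length. Its levels per length may be too low, and its ranks and its ratios to Tsc22d3 depend on that length.

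**Figure D3:**
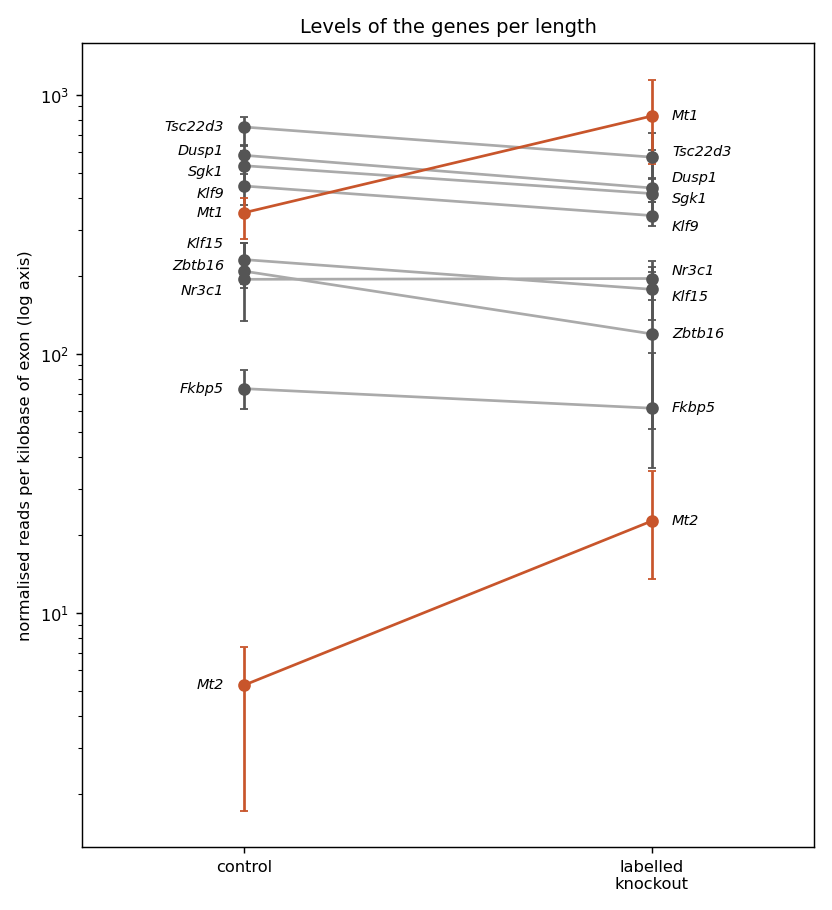
Mean normalised reads per kilobase of exon (log axis) of the 10 genes in the 2 groups, with bars from the lowest to the highest of 4 libraries and lines joining the groups, the metallothioneins in orange. With the exon lengths of all annotated transcripts, Mt1 moves from place 5 (350) to the highest (827), and Mt2 stays lowest (5.26 and 22.6).

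The libraries of a group did not move evenly over the 7 targets other than the metallothioneins. Relative to the control mean of each gene, all 7 were lower in knockout replicates 2 and 3, with median log2 deviations of -0.62 and -0.61. In knockout replicate 1, 5 of 7 were lower (median -0.26), from Dusp1 at -0.81 to Fkbp5 at 0.48. In knockout replicate 4, 6 of 7 were lower (median -0.19), from Zbtb16 at -0.75 to Dusp1 at 0.09. Among the controls, replicate 3 stood apart with 6 of 7 below the mean (median -0.12). Knockout replicates 1 and 4, in which those targets were by the median nearest to the controls, were the ones in which Mt1 was highest. The control group went the other way, with Mt1 highest (498) in replicate 3, where the median of those targets was lowest. Fkbp5 and Zbtb16 shared their extremes in the knockout group, highest in replicate 1 and lowest in replicate 2, as did Klf15. Sgk1, Dusp1, Tsc22d3 and Klf9 were all highest in replicate 4 of that group.

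**Figure D4:**
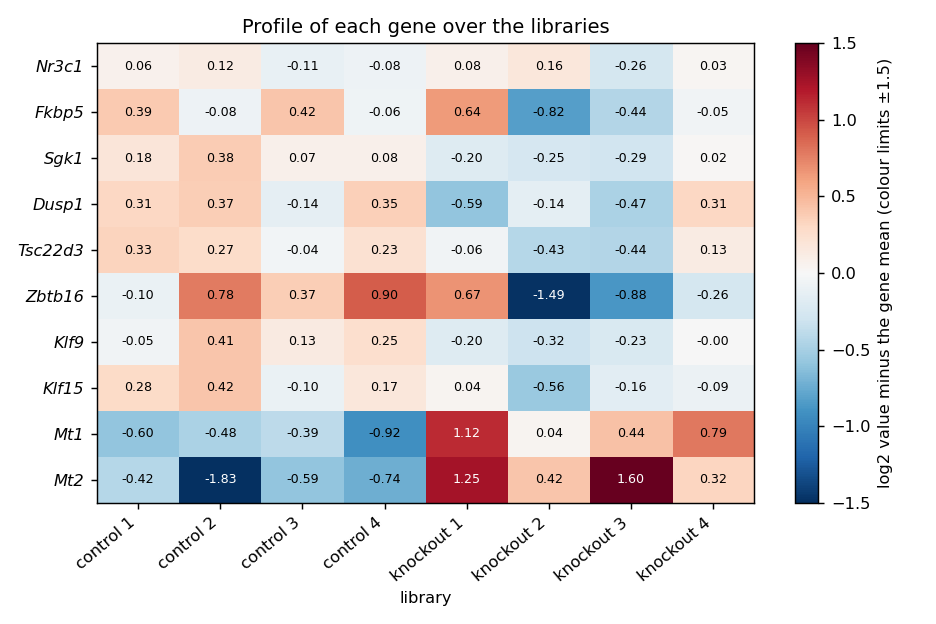
Log2 value of each gene minus its mean over the 8 libraries, by library, with the number in each cell (colour limits at ±1.5). Knockout replicate 2 holds the lowest values of Fkbp5 (-0.82), Zbtb16 (-1.49), Klf9 (-0.32) and Klf15 (-0.56), and Mt1 and Mt2 are below their mean in each control library and above it in each library labelled knockout.

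For each gene, the most alike profile was sought among 11622 other genes with a mean of at least 50 normalised reads, as the smallest root mean square difference of centred log2 values over the 8 libraries. The gene nearest to Nr3c1 was Ddx20 (0.05, where the median gene was at 0.28), and that nearest to Klf9 was Hccs (0.05, median 0.31). For Sgk1 it was Dnajc16 (0.06), for Tsc22d3 the clock gene Cry2 (0.09), for Klf15 Dyrk1b (0.11), for Dusp1 Homer2 (0.11) and for Mt1 Qsox1 (0.13). In absolute distance, Fkbp5 (Tbc1d10c, 0.24), Mt2 (Itgb2, 0.32) and Zbtb16 (Dach2, 0.34) had no profile as near. The median gene was at 0.51 for Fkbp5, 1.089 for Mt2 and 0.81 for Zbtb16, beside 0.35 for Klf15 and 0.73 for Mt1. Distances were not scaled to the spread of each gene, so they do not rank the genes by how closely they are matched. All distances come from the same 8 libraries and share their depth and scaling.

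Of 15 genes for the receptors, their chaperones and coregulators, Nr3c1 among them, 5 were called lower, 0 higher and 10 not, with a median of -0.24. Over all genes tested, 11.6% were called lower and 11.6% higher. The called genes were Hsp90ab1, the constitutive form of the chaperone that holds the receptor (18401 ± 2153 to 12697 ± 653 normalised reads, log2 difference -0.53, limma adjusted p = 0.0108), and Hspa8 (-0.46, limma adjusted p = 0.0109), which loads it. The corepressor gene Ncor1 (-0.39, limma adjusted p = 0.0119), the coactivator gene Ncoa1 (-0.45, limma adjusted p = 0.0131) and the co-chaperone gene Fkbp4 (-0.32, limma adjusted p = 0.0435) were the others. The groups did not overlap for any of these 5, a pattern in this direction that 13.4% of all genes tested showed. Hsp90aa1, the inducible chaperone, stood at 0.02 and the mineralocorticoid receptor gene Nr3c2 at -0.09, both not called. The call of Fkbp4 was lost by edgeR, without the filter, with the replicate block, on leaving out control replicate 1, 2 or 4 or knockout replicate 1, 2 or 4 (limma adjusted p up to 0.112), and under the scaling without muscle, blood and highest genes (-0.17, limma adjusted p = 0.204). Ncoa1 lost its call with the replicate block (limma adjusted p = 0.0503). The list count was 8 without knockout replicate 3 and 3 with that block. Hsp90ab1, Hspa8 and Ncor1 kept their calls in 16 of 16 alternative fits. Under the scaling without muscle, blood and highest genes they stood at -0.38, -0.31 and -0.25 (limma adjusted p = 0.0231, 0.0276 and 0.0426). The skeletal muscle markers given above were lower in the same libraries, and their part in these falls was not tested.

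Of 4 genes that set the local hormone level, 3 were tested and 1 was called, lower, against 11.6% of all genes tested. Hsd11b1, which regenerates active hormone, had between 9.68 and 49.5 normalised reads per library and a difference of -0.27 (limma adjusted p = 0.734). Hsd11b2, which inactivates it, was listed at no more than 6.57 normalised reads in any library and was not tested. H6pd, whose product supplies the cofactor of the former, fell from 920 ± 50.6 to 652 ± 76.7 (log2 difference -0.50, limma adjusted p = 0.00915). Its groups did not overlap, as for 13.4% of all genes tested in this direction. Abcb1a, a transporter that exports steroids, was not called (-0.22, limma adjusted p = 0.467).

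A wider list held 30 genes known to be induced by glucocorticoids. Of 28 tested, 6 were called lower, 2 higher and 20 not, and the median was 0.01, near the 0.00 of all genes. The share of all genes tested that was called was 11.6% in each direction. Lpin1, a phosphatidate phosphatase gene, had the smallest p of the list (-0.87, limma adjusted p = 0.00398). Pdk4, which holds back glucose oxidation, had 5464, 7562, 11086 and 8531 normalised reads in the control libraries and 2932, 3752, 1724 and 1959 in those labelled knockout (log2 difference -1.68, SE 0.27, limma adjusted p = 0.00517). The transcriptional repressor gene Bcl6 (-0.73, limma adjusted p = 0.00585) and the insulin receptor substrate gene Irs2 (-0.78, limma adjusted p = 0.00707) fell too. The remaining lower calls, named after their values were seen, were Mstn, the myostatin gene (-0.85, limma adjusted p = 0.0128), and Trim63, a muscle ubiquitin ligase gene (-0.57, limma adjusted p = 0.0397). The call of Trim63 was lost by edgeR, with the replicate block, under the scaling without muscle, blood and highest genes, and on leaving out control replicate 1, 2 or 4, or knockout replicate 3 or 4 (adjusted p up to 0.109). The 2 genes called higher, named after their values were seen, were Mertk, a receptor for the uptake of dead cells on macrophages (74.8 ± 22.1 to 159 ± 18.7, log2 difference 1.12, limma adjusted p = 0.00941), and Anxa1, an anti-inflammatory annexin (1176 ± 432 to 2676 ± 856, 1.19, limma adjusted p = 0.0179). The call of Anxa1 was lost on leaving out control replicate 2 or knockout replicate 4, with adjusted p up to 0.0553. Angptl4 (1.01, limma adjusted p = 0.0568) and Cebpd (0.38, limma adjusted p = 0.127) were not called. Mertk and Anxa1 were higher where the 8 macrophage markers were, and Pdk4 and Lpin1 lower where the 14 muscle markers were. Their part in these values was not tested.

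Genes known to be repressed by glucocorticoids were mostly too scarce to test, with 5 of 15 passing the filter. Of these, 3 were called higher and 0 lower, against 11.6% of all genes tested in each direction. Mmp13, a collagenase gene, had 2569, 266, 1169 and 876 normalised reads in the control libraries and 13541, 4636, 5956 and 6448 in those labelled knockout (log2 difference 2.93, SE 0.59, limma adjusted p = 0.00993). The others were the adhesion gene Icam1 (0.66, limma adjusted p = 0.0229) and the gelatinase gene Mmp9 (2.82, limma adjusted p = 0.0302), for which control replicate 1, at 3699, lay inside the range of the other group. The call of Mmp9 was lost by edgeR (adjusted p = 0.109) and DESeq2 (0.104), and on leaving out control replicate 2, 3 or 4, or knockout replicate 1 or 4 (limma adjusted p up to 0.0854). That of Icam1 was lost on leaving out control replicate 2 or 4, or knockout replicate 1 (up to 0.0614). Bglap, the osteocalcin gene of osteoblasts, was not called (1.41, limma adjusted p = 0.171), nor was Nos2 (-0.33, limma adjusted p = 0.642). The list count fell to 1 without control replicate 2, control replicate 4 or knockout replicate 1. Mmp9 is also 1 of 6 osteoclast markers, and the other 5 were called higher as well, with differences from 2.42 (Ocstamp) to 3.51 (Dcstamp). Their part in its value was not tested.

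**Figure D5:**
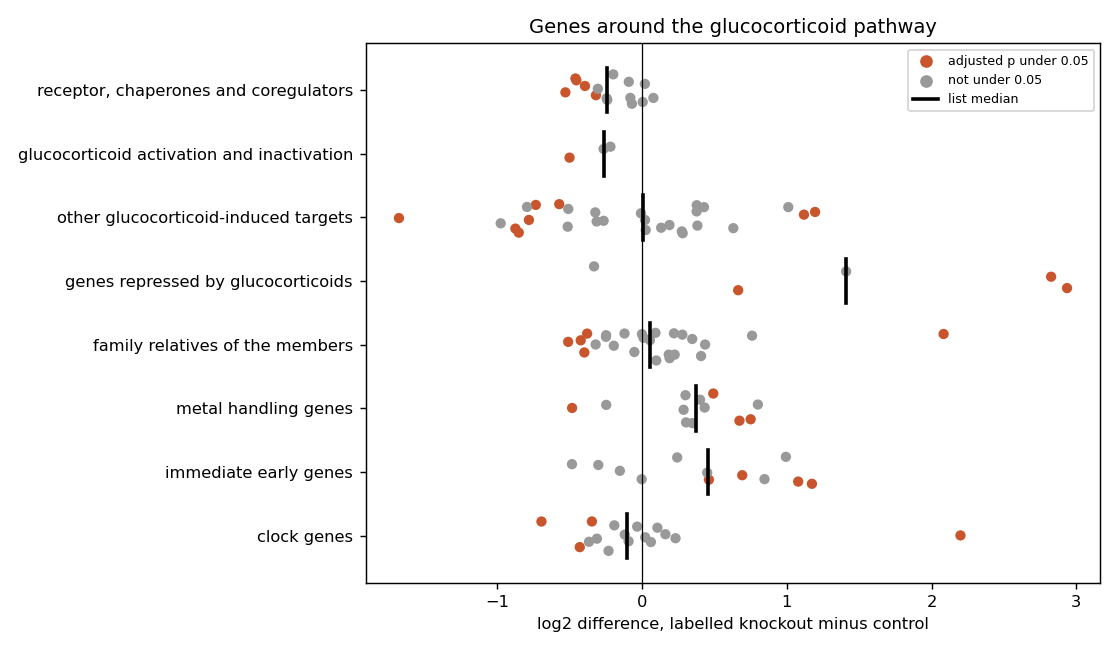
Log2 difference (libraries labelled knockout minus control) of each tested gene of 8 lists around the pathway, orange where the limma adjusted p was under 0.05, with the list median as a black bar. The medians run from -0.27 for the genes of glucocorticoid activation and inactivation to 1.41 for those repressed by glucocorticoids, and the wider list of induced targets is centred at 0.01.

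Close relatives of the 10 genes were read as well. Of 25 tested, 4 were called lower, 1 higher and 20 not (median 0.05). That is 5 of 25 in either direction, near the 23.2% of all genes tested. The phosphatase genes Dusp16 (-0.42, limma adjusted p = 0.0114) and Dusp10 (-0.40, limma adjusted p = 0.0344), the Tsc22d3 relative Tsc22d4 (-0.38, limma adjusted p = 0.0288) and the Krüppel-like factor gene Klf5 (-0.51, limma adjusted p = 0.0313) fell. Dusp16 kept its call in 16 of 16 alternative fits. The others lost theirs with the replicate block and under the scaling without muscle, blood and highest genes (limma adjusted p up to 0.148). Dusp10 also lost it on leaving out any control library or knockout replicate 1 or 4, Tsc22d4 for control replicate 2 or 4 or knockout replicate 1, 2 or 4, and Klf5 for control replicate 1 or 2 or knockout replicate 1, 2 or 4. The gene called higher was another metallothionein gene, Mt3, named after its values were seen. It lies on chromosome 8 from 94152607 to 94154146 and had 137, 57.5, 44.9 and 14.2 normalised reads in the control libraries and 413, 85.5, 179 and 281 in those labelled knockout (log2 difference 2.08, SE 0.65, limma adjusted p = 0.0433). The groups overlapped through control replicate 1, and the libraries labelled knockout stood in the same order as for Mt1, with replicate 1 highest, then 4, 3 and 2. Among the controls the order differed, with Mt3 highest in replicate 1 and Mt1 in replicate 3. The call of Mt3 was lost on leaving out control replicate 2, 3 or 4 or knockout replicate 1, 3 or 4 (limma adjusted p up to 0.113). The list count was 3 without control replicate 1, 3 or 4, 2 without knockout replicate 1, and 1 on leaving out control replicate 2 or knockout replicate 4. Under the scaling without muscle, blood and highest genes 1 relative was called lower and 3 higher.

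Beside the metallothioneins, 3 of 12 metal handling genes were called higher, 1 lower and 8 not (median 0.37). Of all genes tested, 11.6% were called in each direction. The ferritin light chain gene Ftl1 rose from 2725 ± 469 to 4551 ± 465 (log2 difference 0.75, limma adjusted p = 0.00619), and the zinc importer genes Slc39a1 (0.49, limma adjusted p = 0.0113) and Slc39a14 (0.67, limma adjusted p = 0.0356) rose too. The ferritin heavy chain gene Fth1, named after its values were seen, was lower but not called (18690 ± 1877 to 15693 ± 555, -0.25, limma adjusted p = 0.110). Mtf1, the gene of the metal-sensing factor that acts on metal response elements, fell from 410 ± 54.1 to 292 ± 34.2 (-0.48, limma adjusted p = 0.0236). Its call was lost on leaving out control replicate 1 or 2 or knockout replicate 2 or 4 (limma adjusted p up to 0.0694), with the replicate block (0.0585) and under the scaling without muscle, blood and highest genes (-0.33, limma adjusted p = 0.0761). Slc39a14 kept its call, of the leave-one-out fits, only without control replicate 3, and lost it by edgeR and with the replicate block (adjusted p up to 0.0909). The list count fell to 2 on leaving out control replicate 1 or 2, or knockout replicate 2 or 4.

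Dusp1 is also an immediate early gene, and Klf9 and Klf15 are linked to the clock, so both groups were read beside them. Of 12 immediate early genes 4 were called higher, Junb (1.17, limma adjusted p = 0.00397), Ier2 (0.69, limma adjusted p = 0.00765), Egr1 (1.08, limma adjusted p = 0.0158) and Ier3 (0.46, limma adjusted p = 0.0290), and 0 lower. Beside them, 11.6% of all genes tested were called in each direction. In mean log2 value 8 of the 12 were higher and 4 lower, among them Nr4a1 (-0.48, limma adjusted p = 0.0737, not called), beside Dusp1 at -0.45. The call of Ier3 was lost with the replicate block and on leaving out control replicate 1, 2 or 3, or knockout replicate 1, 2 or 4 (limma adjusted p up to 0.0849), and the list count ran from 3 to 6 over the alternatives. Of 16 clock genes 3 were called lower, Tef (-0.35, limma adjusted p = 0.0158), Cry2 (-0.43, limma adjusted p = 0.0254) and Nfil3 (-0.69, limma adjusted p = 0.0294). Npas2 was called higher (21.5 ± 17.3 to 83.9 ± 10.3 normalised reads, log2 difference 2.20, SE 0.44) and 12 were not called. That is 4 of 16 clock genes in either direction, near the 23.2% of all genes tested. The 3 lower calls were lost under the scaling without muscle, blood and highest genes, where only Npas2 of this list was called. Tef also lost its call with the replicate block and without control replicate 2. Cry2 lost it on leaving out control replicate 1, 2 or 4, or knockout replicate 2, and Nfil3 for control replicate 1, 2 or 3 or knockout replicate 1, 2 or 4 (limma adjusted p up to 0.0724). The clock count fell to 1 without control replicate 2, and to 2 on leaving out control replicate 1 or knockout replicate 2.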

How the data were processed

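Poly-A RNA libraries from 8 knee joints were grouped by their titles. The deposited values are a normalised signal per gene and library, which the authors made, per the labels, by aligning reads to mm10, counting them with featureCounts and scaling with DESeq2, and the submitters' processing notes name HISAT2. Versions, annotation, strand setting and filters are not given in the sources used here. In each column 100% of the values below 2000 steps were whole multiples (tolerance 0.01) of the smallest positive value, which gave back the reads. In control replicate 2 and knockout replicate 1 that step was 1.01 and 0.997, too near 1 to tell the scaling by itself. Of the columns, 0 were left unmapped.

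Genes with at least 10 normalised reads in at least 4 libraries were fitted with limma 3.58.1 (log2 of value plus 1, eBayes with trend), with Benjamini-Hochberg adjustment over all 14949 genes tested, called at 0.05, in R 4.3.3. Single genes were also compared by exact permutation over 70 assignments. edgeR 4.0.16 (quasi-likelihood) and DESeq2 1.42.0 on the recovered reads, other pseudocounts (0.1 and 10), no filter, TMM, a scaling without muscle and blood markers and the 50 highest genes, a replicate block and leaving out each library were alternatives. The code was tested on simulated data. Nothing in the labels says that the libraries came from separate animals, so p-values measure the spread between these samples.

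Coordinates and overlaps came from GENCODE M21 (mm10), promoters from RefSeq. The 10 genes and the lists were chosen with earlier results of these data known. All 10 were named. From each pathway list up to 4 called genes and 2 not called, of smallest p, were named, with the exceptions stated, and all of the receptor and activation lists could be. Marker lists not printed elsewhere had these called genes and medians: adipocyte 0 of 8 (-0.12), chondrocyte 1 of 8 (0.76), osteoblast 4 of 7 (1.63), endothelial 0 of 6 (-0.08), erythroid 0 of 7 (-1.95), neutrophil 0 of 8 (-0.64), keratinocyte 0 of 1 tested (0.12), and T and B cell 1 of 3 tested (-1.19). Of all genes tested, 23.2% were called in either direction.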

Additional observations from a re-analysis of the deposited data

Results flagged for a closer look

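In a group of 4 libraries, a value was singled out where its gap to the nearest other passed the 95% critical value of Dixon for the range of the group. Of 90 groups checked over 45 genes 7 met this, and chance alone gives about 5%.

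Among the glucocorticoid-responsive genes it was Dusp1 in control replicate 3, at 1485 normalised reads beside 2025 to 2123 in the other controls. The same library held Loxl2 at 1135 beside 282 to 349, and Slc39a14 at 494 beside 256 to 289. Mmp9 in control replicate 1 stood at 3699 beside 254 to 519. Among the libraries labelled knockout, Irs2 was at 201 in replicate 2 beside 277 to 284, Slc39a1 at 968 in replicate 3 beside 1185 to 1209, and Junb at 1077 in replicate 4 beside 787 to 818.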

How the results depend on the processing

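Mt1 kept its call and the 7 lower targets kept their direction in all 16 alternative fits run for each. The count of the set called lower, 2 as reported, was 0 under the scaling without muscle, blood and highest genes and 0 with the replicate block, and 0 to 4 when 1 library was left out. The count called higher was 2 rather than 1 without the filter, through Mt2. The number of genes of the set whose groups do not overlap was 3, and 2 under the scaling without muscle, blood and highest genes. It was 3 to 6 with 1 library left out (5 without control replicate 3, 6 without knockout replicate 4). Groups separate more easily with fewer libraries, and the share over all genes in those fits was not counted. Over all genes, 3461 were called, 2018 with the replicate block, and 1751 to 3841 with 1 library left out. On the pathway lists together, leaving out 1 library gave 19 (without control replicate 2) to 39 calls (22 without knockout replicate 4) where all 8 gave 34. The log2 difference of Nr3c1, 0.00 as reported, ran from -0.0497 to 0.0935 with 1 library left out, below 0 in 5 of those 8 fits, and was not called in any. With edgeR and DESeq2 the same 3 genes of the set were called as with limma. The cause of each change was not tested beyond the fewer libraries used. Whether same-numbered libraries share more than a number is not given in the labels. The correlations of their deviations were 0.21, -0.12, -0.23 and -0.06, which cannot settle it. Low counts limit Mt2 and Hsd11b2.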
